A study of Mus musculus with 12 samples.

Results

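The T and NK cell genes described here are 10 genes listed by symbol for T lymphocytes and natural killer (NK) lymphocytes: Cd3e, Cd3d, Cd3g, Trbc1, Trbc2, Lck, Klrd1, Nkg7, Gzma and Ccl5. They are 10 of 34538 Ensembl genes measured in the mouse cochlea, the spiral organ that turns sound into nerve signals. All 10 were found in the files. Of these, 7 were expressed highly enough to be among the 15854 genes tested, which needed at least 1 FPKM in at least 4 libraries. FPKM is the number of sequenced fragments per kilobase of exon, scaled to the depth of the library, so levels can be set side by side between genes.

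All mice were wild-type C57BL/6J, an inbred strain known for early hearing loss, and the tissue was taken at 12 months of age. The control mice had normal drinking water. The coffee mice had black coffee in the water at 0.1%, and the GTE mice had green tea extract at 0.006%, both from 3 to 12 months of age. There were 4 libraries in each of the 3 groups, made from polyadenylated RNA with a stranded kit. Whether each library is a separate animal is not stated in the labels; if it is not, the tests below see technical spread alone.

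T cells recognise peptides through a receptor whose alpha and beta chains carry constant regions, encoded for the beta chain by Trbc1 or Trbc2. The receptor signals through the CD3 chains and the kinase Lck. NK cells and cytotoxic T cells share receptors such as CD94, the product of Klrd1, and kill through granules that hold granzymes and the membrane protein Nkg7. Few lymphocytes reside in a healthy adult cochlea, while the temporal bone around it holds marrow, where lymphocytes and their precursors lie among many myeloid cells.

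The files contained from 20526024 to 24835934 fragments per library as the base of the FPKM values, and 3 fragments on a gene of 2000 bases come to between 0.0604 and 0.0731 FPKM, a floor for counting error only. Marrow and cochlear transcripts differed between libraries. Coffee 1, coffee 4 and GTE 1 had the highest mean log2 level of 10 myeloid marrow genes (Mpo, Elane, Prtn3, Ctsg, S100a8, S100a9, Ltf, Camp, Ngp and Lcn2), at 10.2, 9.92 and 10.5, against 8.31 to 9.28 in the controls. The summed FPKM of these 10 genes was 10215 to 16679 in the controls; coffee libraries had 17374 to 27263 and GTE libraries 12209 to 32790, and none was at 0 in any library. The summed level of 9 cochlear marker genes was 3040 to 3121 FPKM in the controls; coffee libraries had 1462 to 2830 and GTE libraries 1929 to 3002. Other libraries matched these 3 on single summaries: coffee 3 had a higher summed myeloid level (23764 FPKM) than coffee 4 (21602) and a mean log2 level of 9.71, and coffee 2 had a lower summed cochlear level (1620 FPKM) than coffee 1 (1828) and GTE 1 (1929). Group differences of the members, and the counts for the other T and NK cell lists, are also given without coffee 1, coffee 4 and GTE 1.

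The beta chain constant genes are shown first because their sequences set what their values can mean. Trbc1 lies at chr6:41538218-41539881 and Trbc2 at chr6:41546730-41548352, both on the plus strand of mm10. Their coding sequences of 518 bases (GENCODE M21 transcripts) differed at 23 bases, an identity of 95.6%. The first coding exon of 375 bases held 1 of the differences and the remaining 143 bases held 22. Coding bases 251 to 518 follow 5′ to 3′, with the bases that differ in capitals.
Trbc1: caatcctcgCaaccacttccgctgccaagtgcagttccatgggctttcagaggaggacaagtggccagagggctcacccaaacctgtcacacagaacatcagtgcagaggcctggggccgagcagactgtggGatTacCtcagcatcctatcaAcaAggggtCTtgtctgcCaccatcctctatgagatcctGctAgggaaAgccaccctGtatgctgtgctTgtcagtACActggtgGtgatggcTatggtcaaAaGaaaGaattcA
Trbc2: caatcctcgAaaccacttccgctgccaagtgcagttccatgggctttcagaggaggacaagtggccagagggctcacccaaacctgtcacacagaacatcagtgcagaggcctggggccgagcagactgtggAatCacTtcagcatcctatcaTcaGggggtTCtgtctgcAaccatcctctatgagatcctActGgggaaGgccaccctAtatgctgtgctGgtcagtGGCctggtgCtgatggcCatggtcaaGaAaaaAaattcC
The longest identical run was 259 bases, so that fragments from most of the first exon carry no letter that tells the genes apart. How the authors assigned such fragments is not given in the sources used here, and the split between Trbc1 and Trbc2 is uncertain.

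Levels were low for all members but one. Over the 12 libraries the mean was 32.1 FPKM for Nkg7, 5.37 for Ccl5, 3.17 for Trbc2, 2.09 for Trbc1, 1.57 for Klrd1 and 1.51 for Lck. It was 0.870 FPKM for Cd3d, 0.811 for Cd3g, 0.661 for Gzma and 0.507 for Cd3e. Nkg7 exceeded Ccl5, Ccl5 exceeded Trbc2, and Lck exceeded Cd3d in 12 of 12 libraries. Several neighbours in this order did not keep it: Klrd1 was above Lck in 7 libraries, Cd3d above Cd3g in 6, and Gzma above Cd3e in 7. Nkg7 alone made up between 44.3% and 77.5% of the summed FPKM of the 10 genes.

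**Figure D1:**
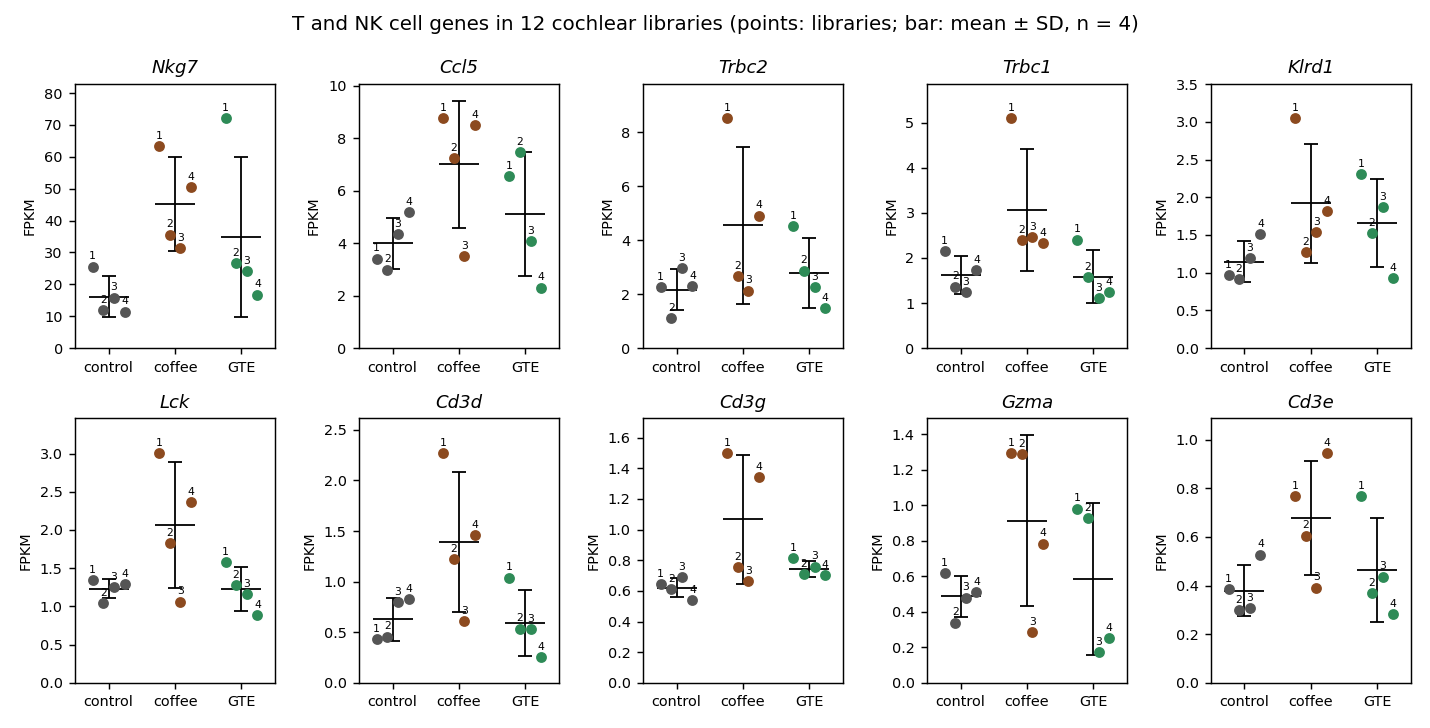
FPKM of the 10 genes in each of the 12 libraries by group, in order of mean level; points are libraries with their replicate number, and the line with bars is the mean ± SD (n = 4). Coffee 1 is the highest library for 8 of the 10 genes, and coffee 3 lies among the controls for most of them.

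The 3 CD3 genes lie side by side on chromosome 9: Cd3g at chr9:44969572-44980431 (minus strand), Cd3d at chr9:44981786-44987339 (plus) and Cd3e at chr9:44998740-45009627 (minus). They encode the gamma, delta and epsilon chains, which pair with each other in the receptor complex. Cd3d measured 0.434, 0.456, 0.799 and 0.829 FPKM in controls 1 to 4, 2.27, 1.22, 0.610 and 1.46 in coffee 1 to 4, and 1.04, 0.537, 0.527 and 0.258 in GTE 1 to 4. Coffee 1, 2 and 4 were above every control, coffee 3 lay within the controls, and GTE 4, with 11 fragments, was the lowest library of all. The group means were 0.629 ± 0.213 FPKM in control, 1.39 ± 0.688 in coffee and 0.590 ± 0.326 in GTE (SD, n = 4).

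Cd3e measured 0.386, 0.299, 0.306 and 0.527 FPKM in the controls, 0.766, 0.605, 0.392 and 0.945 in the coffee libraries, and 0.768, 0.368, 0.437 and 0.281 in the GTE libraries. Below 1 FPKM in every library, it did not enter the filtered fit. Cd3g measured 0.647, 0.611, 0.690 and 0.539 FPKM in control, 1.5, 0.755, 0.664 and 1.34 in coffee, and 0.814, 0.708, 0.758 and 0.703 in GTE. Cd3g was the steadiest member within control and GTE, with SDs of 0.0638 and 0.0518 FPKM. Its 4 GTE values all lay above its 4 control values, although the means differed only from 0.622 to 0.746 FPKM.

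Trbc1 measured 2.16, 1.37, 1.24 and 1.72 FPKM in control, 5.10, 2.40, 2.46 and 2.33 in coffee, and 2.41, 1.57, 1.10 and 1.25 in GTE. All 4 coffee libraries were above all controls, but 3 of them by a narrow margin. Trbc2 measured 2.28, 1.13, 2.97 and 2.30 FPKM in control, 8.53, 2.66, 2.13 and 4.91 in coffee, and 4.53, 2.87, 2.26 and 1.48 in GTE. Here coffee 2 and coffee 3 lay within the controls. The ratio of Trbc2 to Trbc1 in a library ran from 0.825 to 2.40, a 2.91-fold range, on 16 to 136 fragments of Trbc2 and 19 to 88 of Trbc1.

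Lck (chr4:129548344-129573641, minus strand) encodes the SRC family kinase that phosphorylates the CD3 chains. It measured 1.34, 1.05, 1.25 and 1.29 FPKM in control, 3.01, 1.83, 1.06 and 2.36 in coffee, and 1.58, 1.28, 1.16 and 0.886 in GTE. Coffee 1, 2 and 4 stood above a tight control group and coffee 3 inside it. The means were 1.23 ± 0.130 FPKM in control, 2.07 ± 0.825 in coffee and 1.23 ± 0.288 in GTE (SD, n = 4).

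Klrd1 (chr6:129591782-129598775, plus strand) encodes CD94, which pairs with NKG2 chains on NK cells and some cytotoxic T cells. Its values were 0.971, 0.913, 1.19 and 1.51 FPKM in control, 3.05, 1.27, 1.54 and 1.81 in coffee, and 2.31, 1.52, 1.87 and 0.930 in GTE. In each treated group 3 of 4 libraries were above all controls, coffee 3, coffee 4 and coffee 1 in one and GTE 1, 2 and 3 in the other. Coffee 3 and GTE 2 cleared the highest control by a narrow margin.

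Nkg7 (chr7:43437073-43438249, plus strand) is a membrane protein of cytotoxic granules, and its RNA is also known from early granulocyte precursors of mouse marrow. It measured 25.6, 11.8, 15.8 and 11.5 FPKM in control, 63.3, 35.6, 31.3 and 50.6 in coffee, and 72.1, 26.6, 24.1 and 16.8 in GTE. These rest on 222 to 1537 fragments a library, the best depth of any member. Every coffee library was above every control, and GTE 1 was the highest library of all, while GTE 3 and GTE 4 lay within the controls. The means were 16.2 ± 6.57 FPKM in control, 45.2 ± 14.6 in coffee and 34.9 ± 25.2 in GTE (SD, n = 4).

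Gzma (chr13:113093825-113100981, minus strand) encodes granzyme A, a serine protease of the same granules. It measured 0.618, 0.339, 0.480 and 0.513 FPKM in control, 1.29, 1.29, 0.285 and 0.783 in coffee, and 0.981, 0.928, 0.173 and 0.254 in GTE. Both treated groups held libraries above and below all controls, on 4 to 31 fragments a library. Ccl5 (chr11:83525778-83530518, minus strand) encodes a chemokine made by activated T and NK cells and stored in platelets, which attracts leukocytes. It measured 3.41, 2.99, 4.36 and 5.19 FPKM in control, 8.77, 7.23, 3.5 and 8.51 in coffee, and 6.57, 7.49, 4.08 and 2.30 in GTE, so that coffee 3 and GTE 3 lay within the controls and GTE 4 below them.

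Coffee was set against control to see which lymphocyte transcripts differed after long-term intake. All 10 genes had a higher mean in coffee, by 1.67-fold (Klrd1 and Lck) to 2.79-fold (Nkg7) in mean FPKM, with a median of 1.83-fold; over all genes the mean log2 level was higher in 52.4%. None of the 7 genes tested passed limma's test with Benjamini-Hochberg adjustment over all 15854 genes, where the percentage called was 0.00631, a single gene. At an unadjusted p under 0.05, 4 of the 7 were higher (Nkg7, Trbc1, Cd3d and Lck), against 9.25% of all genes tested. Cd3d entered the test through 3 coffee libraries and 1 GTE library, with 0 controls at 1 FPKM. Its place among the genes tested therefore leaned on its high coffee values. In a bulk sample, more cells of a type and more RNA per cell cannot be told apart.

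Nkg7 had the largest difference, 1.44 ± 0.41 (SE) on the log2(FPKM + 1) scale, with adjusted p = 0.200 in limma, and was higher in 4 of 4 coffee libraries. The scale understates the change of low genes. Trbc1 differed by 0.60 ± 0.22 (limma, adjusted p = 0.216), Cd3d by 0.52 ± 0.21 (adjusted p = 0.226) and Lck by 0.42 ± 0.18 (adjusted p = 0.234). For Trbc2 the difference was 0.71 ± 0.35 (adjusted p = 0.277), for Ccl5 0.64 ± 0.32 (0.276) and for Klrd1 0.42 ± 0.20 (0.269). Cd3e, Cd3g and Gzma, below the filter, differed by 0.27, 0.33 and 0.33. In a limma fit with no filter, Cd3e and Cd3g joined the 4 genes at an unadjusted p under 0.05, so that 6 of 10 stood against 5.94% of all genes, and 0 passed after adjustment (adjusted p = 0.410 for Cd3e and 0.389 for Cd3g). A voom fit on fragments recovered from the FPKM steps put 5 of 10 under 0.05 against 8.82% of genes, and 0 past the adjusted threshold.

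Trbc1 and Nkg7 were the members whose coffee and control libraries did not overlap, 2 of the 7 tested; 5.93% of all genes tested had no overlap in that direction. Their exact two-sided permutation p was 0.0286, the smallest that 4 libraries against 4 can give with 70 arrangements. Adjusted over the 30 exact tests of 10 genes in 3 comparisons, the smallest value was 0.245. For 7 members, 3 of the 4 coffee libraries were above every control. The share of all genes with that pattern is not given here, so this count is a description only.

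The differences rested in part on single libraries. Without coffee 1, coffee 4 and GTE 1, Nkg7 differed by 1.07 ± 0.30 (adjusted p = 0.461 in limma) and Trbc1 by 0.40 ± 0.15 (adjusted p = 0.518), both at an unadjusted p under 0.05 (2 of 7 against 4.3% of genes tested), while the other 8 members differed by 0.077 to 0.31. Without coffee 1 alone, Nkg7 differed by 1.27, Trbc1 by 0.39, Cd3d by 0.35 and Lck by 0.27. With the mean log2 level of the myeloid marrow list as a covariate, Nkg7 differed by 0.31 ± 0.19 and Trbc1 by 0.19 ± 0.23, and Trbc2 and Gzma by -0.023 and -0.030. With library quality weights, Nkg7 (1.36, adjusted p = 0.0283), Cd3d (0.61, adjusted p = 0.0382) and Lck (0.48, adjusted p = 0.0444) passed in limma, in a fit that called 15.4% of all genes tested. Those weights ran from 0.213 for GTE 1 to 2.26 for control 1.

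**Figure D2:**
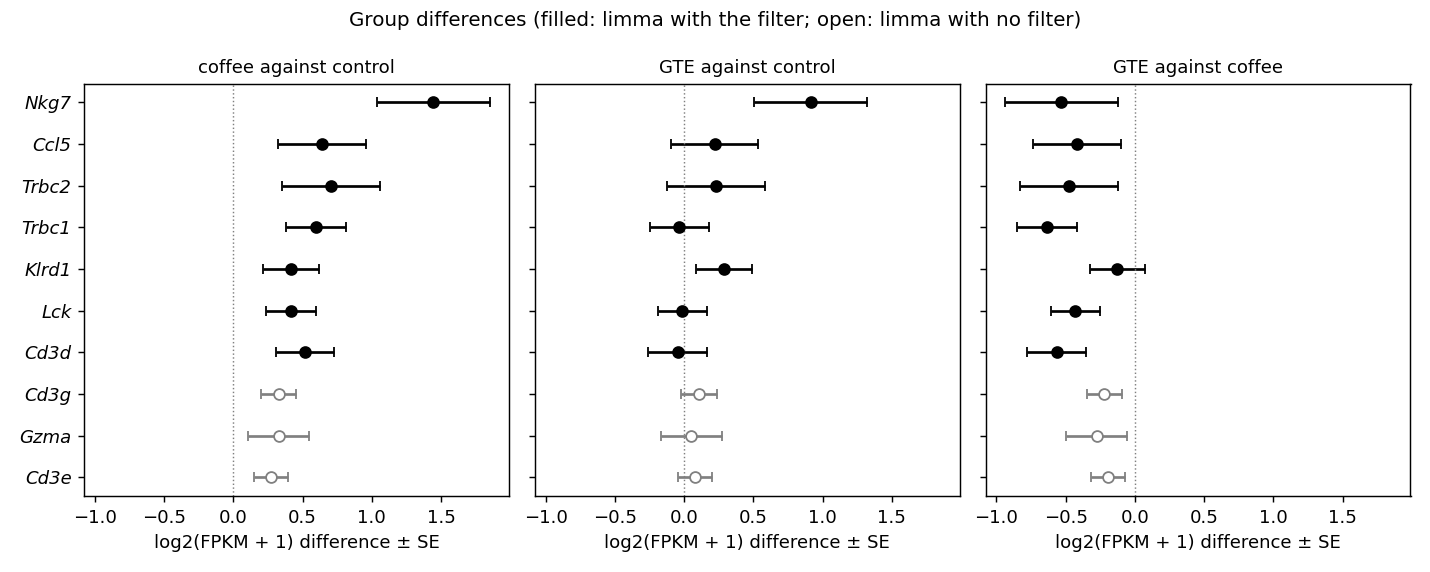
Differences in mean log2(FPKM + 1) for the 10 genes in the 3 comparisons, with bars of ± SE; filled points are from the limma fit with the filter and open points from the fit with no filter. Coffee against control lies to the right of 0 for 10 of 10 genes, with Nkg7 at 1.44, and GTE against coffee to the left for 10 of 10.

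GTE against control shares its control libraries with the comparison above. Of the members, 7 had a higher mean and 3 (Cd3d, Trbc1 and Lck) a lower one, where 51% of all genes had a higher mean log2 level. The means ran from 0.938-fold (Cd3d) to 2.16-fold (Nkg7) of control, with a median of 1.21-fold. No member passed in limma, where again 0.00631% of genes tested did. Nkg7 alone was at an unadjusted p under 0.05, 1 of 7 against 4.14% of genes tested, with a difference of 0.91 ± 0.41 (adjusted p = 0.574; exact permutation p = 0.114). It rested on GTE 1: without that library the difference was 0.50 ± 0.31 (adjusted p = 0.879 in limma). Without coffee 1, coffee 4 and GTE 1 it was 0.50 ± 0.27 (adjusted p = 0.706 in limma), and 0 of 7 members were higher at an unadjusted p under 0.05 against 4.09% of genes tested. The other tested members differed by -0.047 ± 0.21 (Cd3d), -0.034 ± 0.22 (Trbc1), 0.23 ± 0.35 (Trbc2), -0.013 ± 0.18 (Lck), 0.29 ± 0.20 (Klrd1) and 0.22 ± 0.32 (Ccl5).

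Cd3g was the member with no overlap between GTE and control, 1 of 10 against 2.02% of all genes (exact permutation p = 0.0286). Its difference was 0.11 on the log2 scale, and limma with no filter gave an adjusted p of 0.835. Leaving out GTE 4, the library with the lowest values for 4 of the genes, put all 10 means above control. Leaving out GTE 1 put 5 of 10 above.

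GTE against coffee, which uses the same treated libraries again, had a lower mean in GTE for all 10 genes, from 0.424-fold (Cd3d) to 0.864-fold (Klrd1); over all genes the mean log2 level was lower in 49.4%. At an unadjusted p under 0.05 stood Trbc1 (-0.63 ± 0.22), Cd3d (-0.56 ± 0.21) and Lck (-0.43 ± 0.18), 3 of 7 against 2.23% of genes tested. Their adjusted p in limma was 0.718, 0.718 and 0.727, and 0 members and 0 genes passed, as in the voom fit. Their exact permutation p was 0.0857, 0.0571 and 0.143. Cd3d had passed the filter through 3 coffee libraries and 1 GTE library. Nkg7 differed by -0.53 ± 0.41 (adjusted p = 0.788 in limma). In 0 of 10 members were all GTE libraries below all coffee libraries, against 0.953% of all genes. Without coffee 1, the values were -0.42 for Trbc1, -0.40 for Cd3d and -0.29 for Lck. Without coffee 1, coffee 4 and GTE 1, Trbc1 differed by -0.58 ± 0.16 (adjusted p = 0.711 in limma), Cd3d by -0.40, Lck by -0.20 and Nkg7 by -0.58. Trbc1 alone was then at an unadjusted p under 0.05, 1 of 7 against 2.76% of genes tested. In a test of any difference between the 3 groups, Nkg7 and Trbc1 had the smallest adjusted p of the members (0.371 for both in limma).

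The same few libraries were high for most members. Coffee 1, coffee 4 and GTE 1 were above every control for 10 of 10 members, and coffee 2 for 8. Coffee 3 was above every control for 3 members (Trbc1, Klrd1 and Nkg7), within the controls for 6 and below them for Gzma. GTE 2 was above for 5, GTE 3 for 2, and GTE 4 for 1 and below for 5. These counts describe the members only, as the matching shares of all genes are not given here. Coffee 3 had 23764 summed FPKM of myeloid marrow genes, above every control, and 2830 of cochlear genes, the most of the 4 coffee libraries. The part of marrow content in the lymphocyte genes was not tested beyond the covariate values given.

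**Figure D3:**
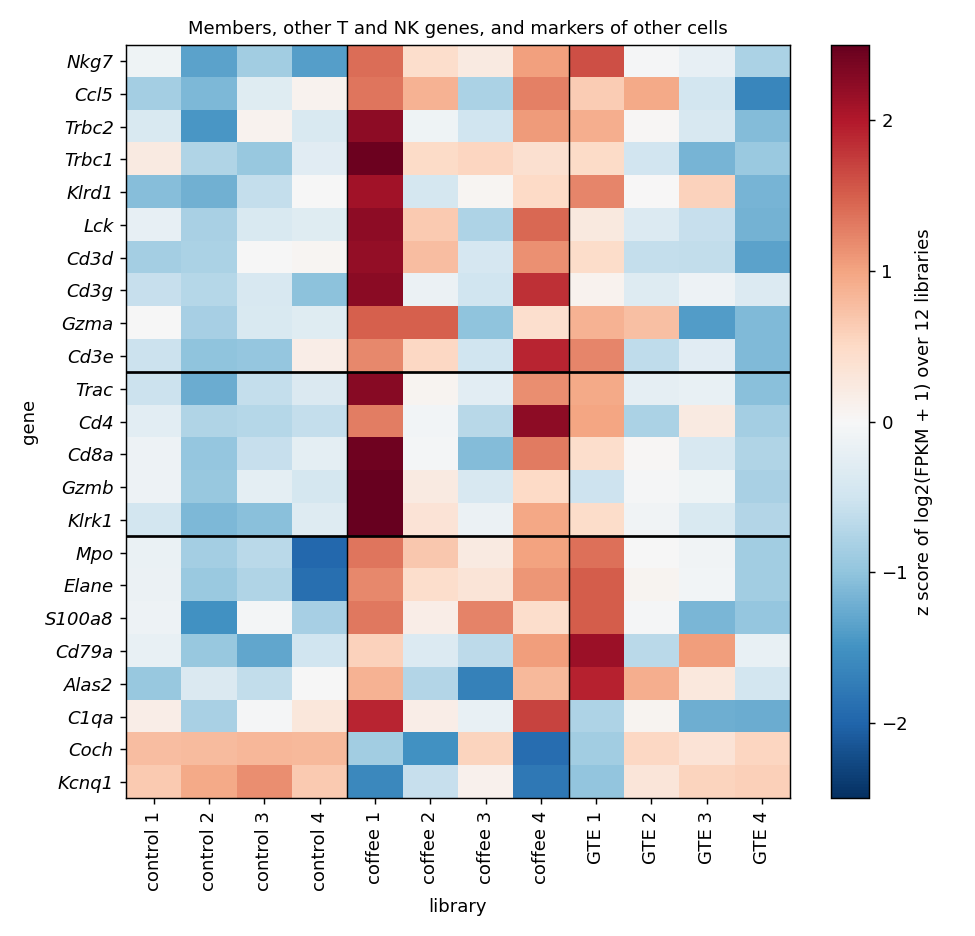
Level of each gene (rows) in each of the 12 libraries (columns) as a z score of log2(FPKM + 1) over the libraries, for the 10 members, 5 other T and NK genes and 8 markers of other cells. Coffee 1, coffee 4 and GTE 1 are high for the members and for Mpo and Elane, and low for Coch and Kcnq1.

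Pairs of members were compared over the 12 libraries, which share the groups and the marrow content. Among the CD3 genes, Trbc1, Trbc2 and Lck, Pearson's r ran from 0.676 to 0.952 over 15 pairs, with a median of 0.823; the highest pair was Cd3d with Lck. Nkg7 with the other 9 ran from 0.664 to 0.806. Gzma ran from 0.494 with Klrd1 to 0.847 with Ccl5.

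Nkg7 was close to the myeloid marrow genes in its pattern over libraries. Against the mean log2 level of the 10 myeloid marrow genes, Nkg7 had r = 0.967 and Spearman's rho = 0.972 over 12 libraries (permutation p = 1e-05 for both, the smallest that 100000 permutations can give; adjusted over 20 relations, 0.0002). Without control 4 and GTE 1, the ends of the range, r was 0.948, and with group means removed 0.945. The other 9 members had r from 0.624 (Ccl5) to 0.784 (Trbc2), with permutation p adjusted from 0.00407 to 0.0320, and with group means removed from 0.443 (Cd3g) to 0.705 (Trbc2). Without control 4 and GTE 1, r was higher for each of these 9, from 0.702 (Gzma) to 0.879 (Trbc2), and so nearer to that of Nkg7. Against Trac, the alpha chain constant gene, the order was another: Trbc2 had r = 0.965, Lck 0.922 and Nkg7 0.861, and Gzma had the lowest, 0.697. The difference between 2 such coefficients was not tested. Without coffee 1 and coffee 4, the relation to Trac was 0.597 for Trbc1, 0.602 for Gzma and 0.616 for Cd3g, and 0.719 to 0.903 for the other 7.

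Ratios within a library were chosen after their values were seen. Elane encodes neutrophil elastase, a granule protease of early granulocyte precursors. It measured 97.8 to 302 FPKM in the controls, with 410 to 722 among coffee and 190 to 872 among GTE libraries. The ratio of Nkg7 to Elane stayed between 0.0646 and 0.117 in all 12 libraries, a 1.82-fold range. The ratio of Nkg7 to Klrd1 ran from 7.60 to 31.2, a 4.11-fold range, and that of Nkg7 to Lck from 8.89 in control 4 to 45.6 in GTE 1, a 5.13-fold range. The ratio of Gzma to Nkg7 had a 6.23-fold range.

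**Figure D4:**
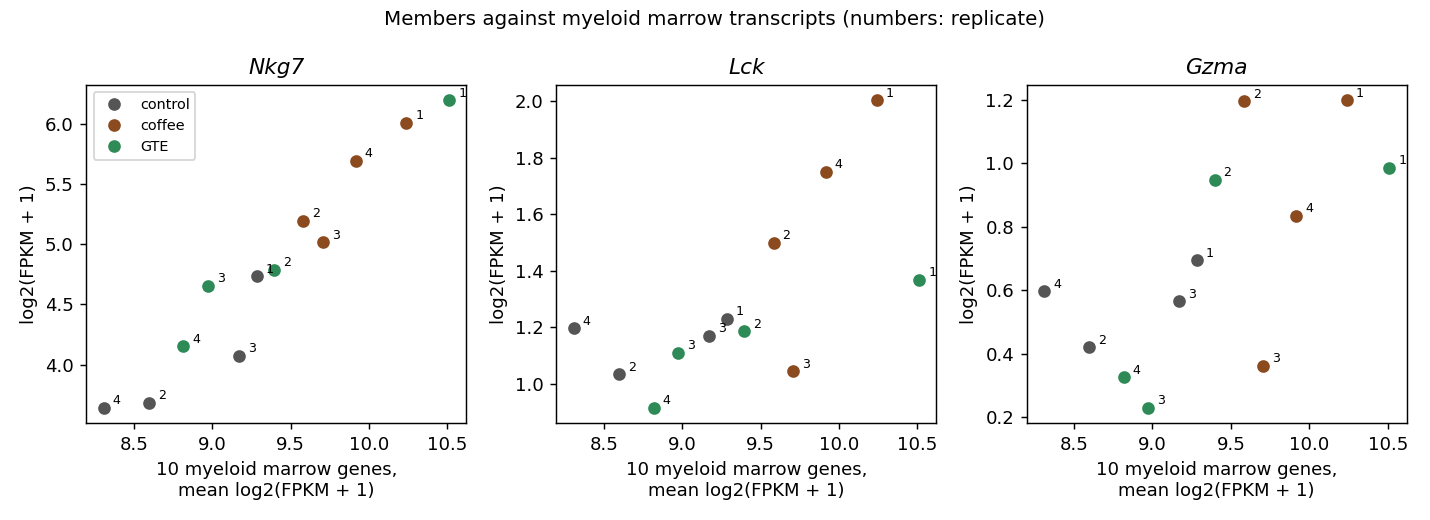
Level of Nkg7, Lck and Gzma (log2(FPKM + 1), vertical) against the mean log2(FPKM + 1) of 10 myeloid marrow genes (horizontal) in the 12 libraries, coloured by group and numbered by replicate. Nkg7 lies along a line (r = 0.967), whereas Lck and Gzma scatter more (r = 0.665 and 0.651), with coffee 3 low for both. Without control 4 and GTE 1, r was 0.948 for Nkg7, 0.840 for Lck and 0.702 for Gzma.

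The promoters of Nkg7, Lck and Gzma are shown because members were high in the same libraries and these 3 hold the core letters that RUNX transcription factors, regulators of T cell and cytotoxic genes, are known to bind. RefSeq (GRCm38.p6) gave 7 promoters for 6 member genes. The 250 bases before each start follow 5′ to 3′ on the gene's strand, with the RUNX core TGTGGT, or ACCACA on the other strand, in capitals. They are chr7:43436888-43437137 (plus) for Nkg7, chr4:129573642-129573891 (minus) for the upstream start of Lck, and chr13:113100982-113101231 (minus) for Gzma.
Nkg7: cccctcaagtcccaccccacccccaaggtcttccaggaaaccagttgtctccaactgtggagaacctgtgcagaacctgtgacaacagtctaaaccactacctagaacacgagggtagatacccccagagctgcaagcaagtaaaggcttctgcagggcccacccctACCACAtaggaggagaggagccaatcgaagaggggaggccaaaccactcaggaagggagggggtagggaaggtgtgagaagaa
Lck: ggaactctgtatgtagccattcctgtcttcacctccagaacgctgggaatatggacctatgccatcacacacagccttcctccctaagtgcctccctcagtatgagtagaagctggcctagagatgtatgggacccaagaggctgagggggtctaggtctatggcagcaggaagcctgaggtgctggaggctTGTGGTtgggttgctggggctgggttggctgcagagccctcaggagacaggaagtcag
Gzma: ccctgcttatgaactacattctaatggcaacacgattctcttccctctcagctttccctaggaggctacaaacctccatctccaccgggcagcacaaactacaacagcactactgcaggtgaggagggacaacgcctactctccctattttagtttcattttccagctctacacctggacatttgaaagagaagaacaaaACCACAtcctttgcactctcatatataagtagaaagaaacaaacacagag
The RUNX core was in 3 of the 7 member promoters and in 14% of 32851 mouse promoters of the same length. The ETS core AGGAAG, or CTTCCT, was in 5 of the 7 (Cd3d, Cd3e, Nkg7 and both of Lck) and in 29.5% of all. A match is a description of letters and not a bound site.

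Genes of T cell receptor signalling and the coreceptors, from a list of 17 without the members, were compared with the members. In coffee against control, 17 of 17 had a higher mean, with a median log2 difference of 0.40 against 0.010 over all genes tested. Of the 8 tested, 0 passed in limma. At an unadjusted p under 0.05, 5 were higher, against 9.25% of all genes tested. They were Ptprc, Lcp2, Lat, Ptpn22 and Trac, named after their values were seen. Without coffee 1, coffee 4 and GTE 1, 14 of 17 had a higher mean. Then 1 of the 8 (Ptpn22) was higher at an unadjusted p under 0.05, against 4.3% of genes tested. Ptprc, the leukocyte phosphatase CD45, had the highest level, 9.07 ± 2.08 FPKM in control and 17.0 ± 6.60 in coffee (0.79, adjusted p = 0.229 in limma), but every leukocyte carries it. Lcp2, the adaptor SLP-76, measured 6.65 ± 1.64 and 13.6 ± 4.93 FPKM, and the adaptor Fyb 4.48 ± 1.37 and 8.63 ± 4.14; both are also used by myeloid cells and platelets.

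The T cell defining members of that list were low. Trac measured 1.60, 1.09, 1.55 and 1.75 FPKM in control, 5.25, 2.15, 1.84 and 3.42 in coffee, and 3.12, 1.87, 1.91 and 1.23 in GTE. All 4 coffee libraries were above all controls, as in 5.93% of genes tested (0.67 on the log2 scale, adjusted p = 0.218 in limma). Without the 3 libraries the difference was 0.27 (adjusted p = 0.624 in limma). Cd4, the coreceptor of helper T cells, which some macrophages also carry, measured 1.20 ± 0.195 FPKM in control, 2.92 ± 1.96 in coffee and 1.75 ± 0.954 in GTE. Cd8a, the coreceptor of cytotoxic T cells, measured 0.575 ± 0.147, 1.20 ± 0.838 and 0.707 ± 0.223 FPKM, and its partner Cd8b1 0.740 ± 0.311, 1.15 ± 0.872 and 0.779 ± 0.149. Cd2 measured 1.61 ± 0.515, 2.17 ± 0.680 and 1.75 ± 0.261 FPKM. Of the 13 genes of T cell identity and migration, 8 had a higher mean in coffee and 0 of the 7 tested passed in limma. At an unadjusted p under 0.05, 2 were higher and 1 lower. Over all 15854 genes tested, 1467 were higher and 1708 lower at that level. Without the 3 libraries, 4 of the 13 had a higher mean and 0 were at an unadjusted p under 0.05. Over all genes tested, 681 were then higher and 809 lower at that level. Among its most abundant genes were S1pr1 (23.3 ± 6.89 FPKM in control and 18.0 ± 2.13 in coffee) and Gata3 (14.8 ± 3.05 and 9.35 ± 3.15), which other cochlear or blood cells also express.

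Of 11 NK effector genes, 9 had a higher mean FPKM in coffee than in control and 6 were tested. In limma 0 passed, and 2 (Cst7 and Ctsw) were higher at an unadjusted p under 0.05, against 9.25% of genes tested. Without coffee 1, coffee 4 and GTE 1, 4 of 11 had a higher mean. Cst7 alone was then at an unadjusted p under 0.05 (0.94, adjusted p = 0.440 in limma), against 4.3% of genes tested. Cst7, a cystatin of cytotoxic and myeloid granules, had the highest level, 9.26 ± 2.21 FPKM in control, 24.2 ± 7.94 in coffee and 18.1 ± 12.3 in GTE. Ctsw, a cathepsin of T and NK cells, measured 2.15 ± 0.331, 3.48 ± 1.26 and 2.54 ± 0.617 FPKM, and the chemokine Ccl3 3.21 ± 3.32, 2.74 ± 1.47 and 3.33 ± 2.18. Gzmb, granzyme B, measured 7.07 FPKM in coffee 1 and at most 1.59 in the other 11 libraries. Prf1, the granule pore protein perforin, was at most 0.554 FPKM in any library. The cytokine gene Ifng was listed at 0 in 7 of the 12 libraries and Xcl1 in 1.

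Of 14 NK receptors and regulators, 14 had a higher mean in coffee than in control. In limma 5 were tested, 0 passed, and 2 were higher at an unadjusted p under 0.05, against 9.25% of genes tested. Without the 3 libraries all 14 still had a higher mean, and 0 of the 5 were at an unadjusted p under 0.05. Over all genes tested, 4.3% were then higher at that level. The defining NK markers were low: Ncr1 reached at most 0.475 FPKM and Klrb1c at most 0.391. Klrk1, the receptor NKG2D, measured 0.265 ± 0.103 FPKM in control, 0.791 ± 0.440 in coffee and 0.411 ± 0.143 in GTE, and the transcription factor Eomes 0.162 ± 0.0715, 0.546 ± 0.350 and 0.198 ± 0.125. The most abundant genes were Cd226 (1.52 ± 0.898, 3.87 ± 1.81 and 3.53 ± 1.62 FPKM), which platelets also carry, S1pr5 (1.94 ± 0.720, 2.78 ± 0.95 and 1.93 ± 0.436) and Il2rg (1.54 ± 0.266, 2.92 ± 1.5 and 1.98 ± 0.994). Cd226 had the largest difference of these, 0.95 in coffee and 0.86 in GTE against control (limma, adjusted p = 0.215 and 0.574), and 0.51 and 0.64 without the 3 libraries. Among receptors that bind Ccl5, Ccr1 measured 21.1 ± 5.62 FPKM in control, 32.6 ± 13.4 in coffee and 22.8 ± 9.49 in GTE, and did not reach an unadjusted p under 0.05 in limma in either comparison with control. Ccr3, below the filter, measured 0.215 ± 0.131, 0.603 ± 0.303 and 0.518 ± 0.389 FPKM.

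In GTE against control no gene of these lists passed in limma. At an unadjusted p under 0.05 stood 0 of 8 receptor signalling genes, 1 of 7 identity genes (S1pr1, lower), 0 of 6 effector genes and 1 of 5 NK receptor genes (Cd226, higher). Over all 15854 genes tested, 656 were higher and 681 lower at that level. Over all genes of each list, tested or not, the median log2 differences were 0.14, 0.024, 0.047 and 0.15, against 0.0068 over all genes tested. Without the 3 libraries, S1pr1 (-0.66) and Cd226 (0.64) were again the genes of these lists at an unadjusted p under 0.05 in limma. Over all genes tested, 649 were then higher and 525 lower at that level.

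Markers of other cells are given beside the members. Of the 10 myeloid marrow genes, 10 had a higher mean in coffee than in control and 6 were at an unadjusted p under 0.05, with a median log2 difference of 0.76; in GTE the counts were 10 and 3, with a median of 0.44. With the same 3 libraries left out, the counts of myeloid genes were 10 and 6 in coffee and 6 and 0 in GTE. Of all genes tested, 9.25% were higher at an unadjusted p under 0.05 in coffee and 4.14% in GTE. Without the 3 libraries these shares were 4.3% and 4.09%. All 5 platelet and megakaryocyte genes and all 4 basophil and mast cell genes were higher in mean in coffee, and 1 of each list was at an unadjusted p under 0.05; summed platelet levels were 67.0 to 296 FPKM in the controls, with 211 to 626 among coffee and 215 to 737 among GTE libraries. B lineage genes summed to 16 to 20.2 FPKM in the controls; coffee libraries had 16.8 to 35.8 and GTE libraries 18.3 to 50.3. Macrophage genes overlapped between groups, at 230 to 271, 251 to 361 and 216 to 274 FPKM in control, coffee and GTE, as did red cell precursor genes, at 2988 to 4962, 1811 to 5149 and 3948 to 8708. Of 9 cochlear genes, 6 were lower in coffee at an unadjusted p under 0.05 (median -0.71), where 1708 of 15854 genes tested were lower. Of 2 vessel genes, 0 were at that level in coffee in either direction. No gene of these lists passed after adjustment in limma.

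The genes whose pattern over the 12 libraries was most like the mean of the 7 tested members, each scaled to its own mean and SD, were sought among 13545 genes. They were Trac (r = 0.986), Sp100 (0.983), H2-T24 (0.978), Ms4a4b (0.975), Psmb9 (0.973), Samhd1 (0.971), H2-D1 (0.968), Irf5 (0.968), Nlrc5 (0.967) and Tap1 (0.966). Trac and Ms4a4b are known from T cells, and H2-D1, Psmb9, Nlrc5 and Tap1 from MHC class I presentation. The most opposite were Pccb and Ackr3, followed by Actr8, Dpyd and Oxct1, all at r = -0.96. These coefficients are descriptions over libraries that share groups and marrow content.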

How the data were processed

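The authors deposited 1 FPKM value per Ensembl gene and library for 12 libraries. Per the labels' protocols, Trizol RNA was made into TruSeq stranded mRNA libraries, while Trimmomatic, HISAT2, Cufflinks, HTSeq and the build mm10 are named per the submitters' processing notes. Their roles and versions, and the strand setting, were not given in the sources used here. A symbol was matched for 34459 of 34538 identifiers. FPKM came out as whole fragments, within 0.01 and at the GENCODE M21 exon length, for 92.3% of genes, all 10 members among them. Cd3e shares 3.31% of its exon bases with the antisense gene Gm48719; of other named genes, Mpo shares 15.0% and Xcl1 18.7% with a measured gene on the opposite strand, and Ifng 25.9% with one on its own strand, and their values are uncertain.

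The main test was limma 3.58.1 (R 4.3.3) on log2(FPKM + 1) with 3 group means, all 12 libraries, a mean-variance trend and Benjamini-Hochberg adjustment over 15854 genes, those reaching 1 FPKM in 4 or more libraries, at a threshold of 0.05. It was tested on simulated data. Exact permutation tests and correlations used Python 3.11.15 with scipy 1.17.1. Members, gene lists, settings and the libraries left out together were chosen with earlier results of these data known. Named genes were the 10 members, up to 3 genes of each list with the highest mean FPKM, defining cell type markers, and the 10 most and 5 least similar genes. Alternatives were other pseudocounts, filters, scalings and variance models, library weights, a replicate block, a myeloid covariate, voom on recovered fragments, and libraries left out. The values of each library rest on 20526024 to 24835934 fragments; no files were identical. Some list genes are not reported here.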

Additional observations from a re-analysis of the deposited data

Results flagged for a closer look

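Coffee 1 stood apart for Trbc1, the constant gene of the T cell receptor beta chain. It measured 5.10 FPKM on 88 fragments, while the other 3 coffee libraries lay at 2.33 to 2.46 FPKM. The gap to its nearest neighbour was 0.951 of the range of the group, above Dixon's 95% critical value of 0.829 for 4 samples. It was 1 of 30 groups of 4 libraries examined, and chance flags about 1 in 20. Without coffee 1, Trbc1 differed from control by 0.39 on the log2 scale (adjusted p = 0.499 in limma), against 0.60 with it. Trbc2 was also highest in coffee 1, at 8.53 FPKM, and fragments from stretches where the sequences of Trbc1 and Trbc2 are identical cannot be told apart.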

How the results depend on the processing

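Over the 25 alternatives, the 10 members gave 250 values per comparison. Of these, 245 kept their direction and side of the threshold in coffee against control, 228 in GTE against control and 246 in GTE against coffee. The 3 calls gained in coffee against control (Nkg7, Cd3d and Lck) came with library weights. Genes past the threshold in coffee against control numbered 0 with no filter, with only the 8 libraries compared, with no mean-variance trend, with the replicate block, without coffee 1, coffee 4 and GTE 1, and in voom. They numbered 4 with the myeloid covariate and 2437 with weights, and 0 to 98 with 1 library left out (98 without coffee 3, 28 without GTE 1). In GTE against control they numbered 0 with only the 8 libraries compared, with the replicate block, with the covariate and without the 3 libraries, 4 with weights, and 0 to 1 with 1 library left out. In GTE against coffee they numbered 365 with weights and 0 to 1 with 1 library left out. The cause was not tested.

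In coffee against control, Trbc2 (-0.0233) and Gzma (-0.0302) turned with the covariate. In GTE against control, 3 members were higher with the covariate, where Cd3e (-0.0205), Trbc2 (-0.187), Gzma (-0.152) and Ccl5 (-0.0197) turned. Gzma was also -0.0158 with a pseudocount of 0.1, -0.126 with weights, -0.0719 in voom and -0.0684 without the 3 libraries, and Cd3e -0.00349 with weights and -0.0164 without the 3 libraries. With 1 library left out, the range was -0.0164 to 0.138 for Cd3e, -0.174 to 0.0581 for Cd3d, -0.175 to 0.0606 for Trbc1, -0.0871 to 0.0639 for Lck and -0.0684 to 0.184 for Gzma. In GTE against coffee, 2 members were higher without the 3 libraries (Cd3g 0.0116, Klrd1 0.00397), and 0 to 1 with 1 library left out (Klrd1, -0.242 to 0.0427).

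Adjusted p for Nkg7 in coffee against control ran from 0.0283 to 0.646 over the alternatives. Deviations of libraries with the same replicate number in their titles correlated from -0.383 to 0.550 over 12 pairs, with a mean of 0.0704. Those of differently numbered libraries ran from -0.562 to 0.529 over 36 pairs, with a mean of -0.0243. These overlapping ranges cannot decide whether the numbers pair the libraries. With the replicate block, 0 genes passed in each comparison. Depth limits Gzma most, with as few as 4 fragments in a library.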

Other observations

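Genes of immature T cells were higher in mean in GTE than in control for 4 of 5. Rag1, the recombinase that joins receptor gene segments in T and B cell precursors, measured 0.430 ± 0.0710 FPKM in control, 0.715 ± 0.621 in coffee and 1.26 ± 0.677 in GTE (SD, n = 4). It was the only tested gene of that list at an unadjusted p under 0.05 in GTE against control (0.60, limma, adjusted p = 0.574), and none passed. Over all genes tested, 4.14% were higher at that level. Rag1 lay below 1 FPKM in the controls, so it passed the filter only through treated libraries. Without coffee 1, coffee 4 and GTE 1 it differed by 0.46 (adjusted p = 0.678 in limma) and was no longer at an unadjusted p under 0.05. Dntt, which adds bases at the joins, measured 1.07 ± 0.934, 1.77 ± 1.04 and 2.49 ± 1.60 FPKM, and Cd1d1, an antigen-presenting molecule with a wider distribution, 4.03 ± 1.30, 4.69 ± 0.871 and 4.08 ± 1.07. Ptcra, the pre-receptor alpha chain of thymocytes, was at most 0.14 FPKM and listed at 0 in 4 libraries. B precursors also use Rag1 and Dntt. In the same comparison, 3 of the 5 tested B lineage genes were higher at an unadjusted p under 0.05. Cd79a and Cd79b were among them (0.93 and 1.00, adjusted p = 0.574 for both in limma). Without the 3 libraries Cd79a and Cd79b differed by 0.57 and 0.70, and Cd79b alone of the list was at an unadjusted p under 0.05.

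Taken singly, after their values were seen, members differed in the genes they resembled over the 12 libraries. The genes most like Nkg7 were Atp8b4 (r = 0.993), Spn (0.993), Adgrg3 (0.985) and Cst7 (0.985). Those most like Lck were H2-D1 (0.982), H2-K1 (0.976), H2-Q7 (0.974) and Oas3 (0.973), genes of MHC class I and of the interferon response. Those most like Trbc2 were Ms4a4b and Trac (both 0.965). Whether these coefficients differ between members was not tested.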
